A study of Mus musculus with 2 samples.

Results

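The genes described here encode the machinery that copies DNA and divides the cell, together with the factors that switch it on. They are 59 genes named by symbol, out of 23309 rows in the deposited table, and all 59 were found there by exact symbol. For comparison they were split by role into 22 replication genes, 25 mitosis genes and 12 regulators (E2F factors, pocket proteins, cyclins E and A, Cdk2 and Cdc25a). RNA sequencing compared 4OHT-treated with ethanol-treated cultures of mouse bone marrow progenitors, genotype Cebpaf/f;CreER, in which the Cebpa gene is flanked by loxP sites and the Cre recombinase becomes active once it binds 4-hydroxytamoxifen (4OHT). The 4OHT cells received 5 nM for 72 h and the vehicle cells received ethanol alone. All cells of both groups came from lineage-depleted marrow, carried retroviral HA-Hoxa9 and Flag-Meis1 (MIGR1 vectors), which transform such progenitors, and grew with IL3. There was 1 sample per condition, which joined 2 replicates, so a gene has a single value in each condition and the scatter between replicates is unknown. No group shows 4OHT acting on cells without the loxP sites, so lowered Cebpa, Cre activity and 4OHT itself cannot be told apart.

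E2F factors bind promoters of genes needed for DNA synthesis, and the pocket proteins Rb1 and Rbl1 hold them silent until cyclin-dependent kinases release them. Before S phase, Cdc6 and Cdt1 load the MCM helicase at origins, and Cdc45 and the GINS complex then make it active. Genes of mitosis are transcribed later, largely through Foxm1 and factors that act on CHR and CCAAT elements in their promoters. C/EBPα, the product of Cebpa, is known as a brake on proliferation of myeloid cells that can repress E2F-dependent transcription. This makes the set of genes a natural one to examine when Cebpa is lowered.

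The promoters of the replication and mitosis members, taken from RefSeq (build GRCm38.p6), fall largely along the same line as the roles. Promoters for 47 of the 59 members were at hand, each 250 bases before to 50 after a transcription start. Rb1, Mcm4, Gins1, Gins2, Pole, Ccne2, Ccna2, Cdc25c, Foxm1, Aurkb, Kif20a and Tpx2 had none. Both strands were searched for an E2F motif (TTCCCGC, as well as TTCGCGC, the variant TTGCCGC and also TTGGCGC), for CHR (TTTGAA), for the CCAAT box (CCAAT) and for a GC box (GGGCGG). CHR was found in 13 of 20 mitosis promoters (65%) and in 2 of 18 replication promoters (11.1%), against 14.2% of 8822 genes tested in the deposited table and 20.2% of all 27025 genes with a promoter. E2F motifs were found in 3 of 20 mitosis promoters (15%) and in 12 of 18 replication promoters (66.7%), against 19.6% of the tested genes and 10.9% of all genes. On wider lists of further genes the split was weaker. CHR was in 65.2% of 46 wider mitosis and 22.9% of 35 wider replication promoters, and E2F in 30.4% and 60%. Of 9 regulator promoters, 7 held E2F and 3 held CHR. CHR and CCAAT occurred together in 13 mitosis promoters and 2 replication promoters, and in 7.04% of the tested genes. The CCAAT box, with or without CHR, was common in both sets. It was found in 17 of 20 mitosis promoters (85%) and in 13 of 18 replication promoters (72.2%), against 43.2% of the tested genes. GC boxes too separated the sets less than CHR or E2F, with 85% of mitosis and 72.2% of replication promoters against 68.6% of the tested genes. None of the 45 E2F matches in member promoters (0) overlapped a GC box match. These are matches of letters and show no binding.

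The bases before the start are shown for 3 replication genes with E2F motifs in capitals and for 3 mitosis genes with CCAAT and CHR in capitals, as examples of both promoter types. They are not pure types. Left in lower case are E2F matches of Cdk1, at -178 and -130, and CCAAT boxes of all 3 replication genes, such as that of Rrm2 at -50. All sequences are on GRCm38.p6 and run 5′ to 3′ toward the start.
Mcm6 (chr1:128359706-128359955, minus strand): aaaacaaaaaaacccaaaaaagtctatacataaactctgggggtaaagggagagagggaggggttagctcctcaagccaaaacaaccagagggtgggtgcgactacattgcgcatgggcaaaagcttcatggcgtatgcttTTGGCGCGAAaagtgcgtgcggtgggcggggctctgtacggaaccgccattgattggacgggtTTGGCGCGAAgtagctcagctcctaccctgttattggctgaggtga
Mcm5 (chr8:75109259-75109508, plus strand): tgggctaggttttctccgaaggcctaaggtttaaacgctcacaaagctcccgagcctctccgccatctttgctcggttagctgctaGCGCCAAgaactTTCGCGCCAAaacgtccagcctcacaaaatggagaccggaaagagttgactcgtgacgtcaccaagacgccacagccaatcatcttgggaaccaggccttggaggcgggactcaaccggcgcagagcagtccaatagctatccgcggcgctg
Rrm2 (chr12:24708004-24708253, plus strand): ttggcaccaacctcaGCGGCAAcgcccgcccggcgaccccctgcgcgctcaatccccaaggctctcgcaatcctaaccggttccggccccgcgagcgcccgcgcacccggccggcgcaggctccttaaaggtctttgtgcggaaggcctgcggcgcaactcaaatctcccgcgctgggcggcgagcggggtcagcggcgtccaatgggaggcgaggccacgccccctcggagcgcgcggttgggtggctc
Cdk1 (chr10:69352913-69353162, minus strand): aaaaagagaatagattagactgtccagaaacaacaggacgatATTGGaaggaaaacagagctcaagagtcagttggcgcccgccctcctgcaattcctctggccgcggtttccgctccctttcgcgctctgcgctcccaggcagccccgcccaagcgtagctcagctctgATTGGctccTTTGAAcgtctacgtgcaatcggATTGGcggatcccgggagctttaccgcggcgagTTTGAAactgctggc
Cdc20 (chr4:118437344-118437593, minus strand): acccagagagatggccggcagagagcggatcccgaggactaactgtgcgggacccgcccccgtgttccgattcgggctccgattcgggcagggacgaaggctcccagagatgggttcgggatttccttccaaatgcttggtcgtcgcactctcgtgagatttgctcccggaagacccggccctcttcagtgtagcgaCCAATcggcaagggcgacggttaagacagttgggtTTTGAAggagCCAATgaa
Ube2c (chr2:164769679-164769928, plus strand): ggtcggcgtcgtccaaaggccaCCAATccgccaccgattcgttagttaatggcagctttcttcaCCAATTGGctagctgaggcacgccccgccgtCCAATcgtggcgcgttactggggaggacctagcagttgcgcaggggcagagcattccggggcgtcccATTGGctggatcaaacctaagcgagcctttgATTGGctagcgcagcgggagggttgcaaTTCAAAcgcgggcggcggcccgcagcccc
In Mcm6 the E2F motif occurs before the start as 2 overlapping pairs, and in Mcm5 the matches start at -164, -152 and -149, counted from the first transcribed base as 0. Rrm2, the replication gene that differed most between conditions, has a single match far upstream, at -235, which the shorter window of 150 bases before the start leaves out. In Cdk1 a CHR match lies at -15, in Cdc20 at -18 and in Ube2c, on the opposite strand, at -29. CCAAT boxes lie upstream of these in all 3, and Cdc20 has a further one at -8, nearer the start. Over the mitosis promoters the CHR matches had a median position of -18.

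**Figure D1:**
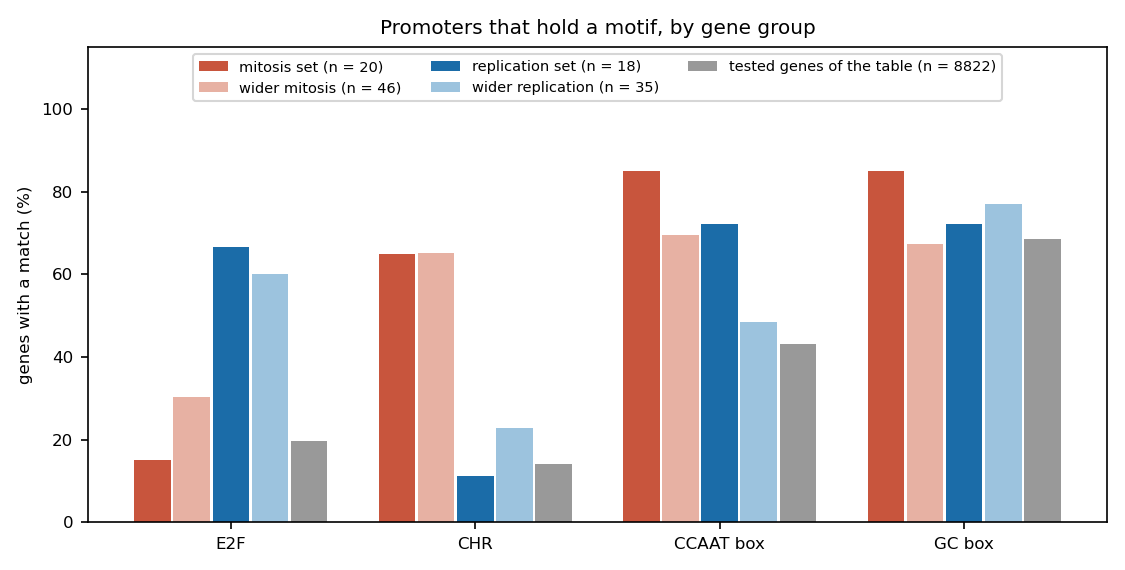
Share of genes (%, vertical axis) whose promoter held each motif, for the mitosis set, a wider mitosis list, the replication set, a wider replication list and all tested genes of the deposited table; n in the legend is the number of genes with a promoter. CHR stands at 65% in the mitosis set and 11.1% in the replication set, and E2F at 15% and 66.7%.

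All 59 members were expressed. Levels are in FPKM, fragments scaled by transcript length and depth, which allows levels of different genes to be set side by side. They ran between 3.46 and 389 FPKM in 4OHT cells and between 5.12 and 399 FPKM in vehicle cells, with medians of 36.3 and 39.7 FPKM, above the medians of 15.4 and 15.6 FPKM over the 10989 rows that reached 1 FPKM in the higher condition. Read counts are not part of the table, which leaves the sequencing depth unknown. FPKM summed to 673516 in 4OHT cells and 684536 in vehicle cells. Cebpa itself had 42.8 FPKM in 4OHT cells and 109 FPKM in vehicle cells, 39.2% of the vehicle level. Its transcript was thus reduced in part, not absent. The progenitor markers Cd34, Kit, Myb, Ptprc and Flt3 were expressed in both conditions, between 10.3 and 493 FPKM, and the lymphoid markers Cd3e, Cd3g and Pax5 were listed at 0.

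**Figure D2:**
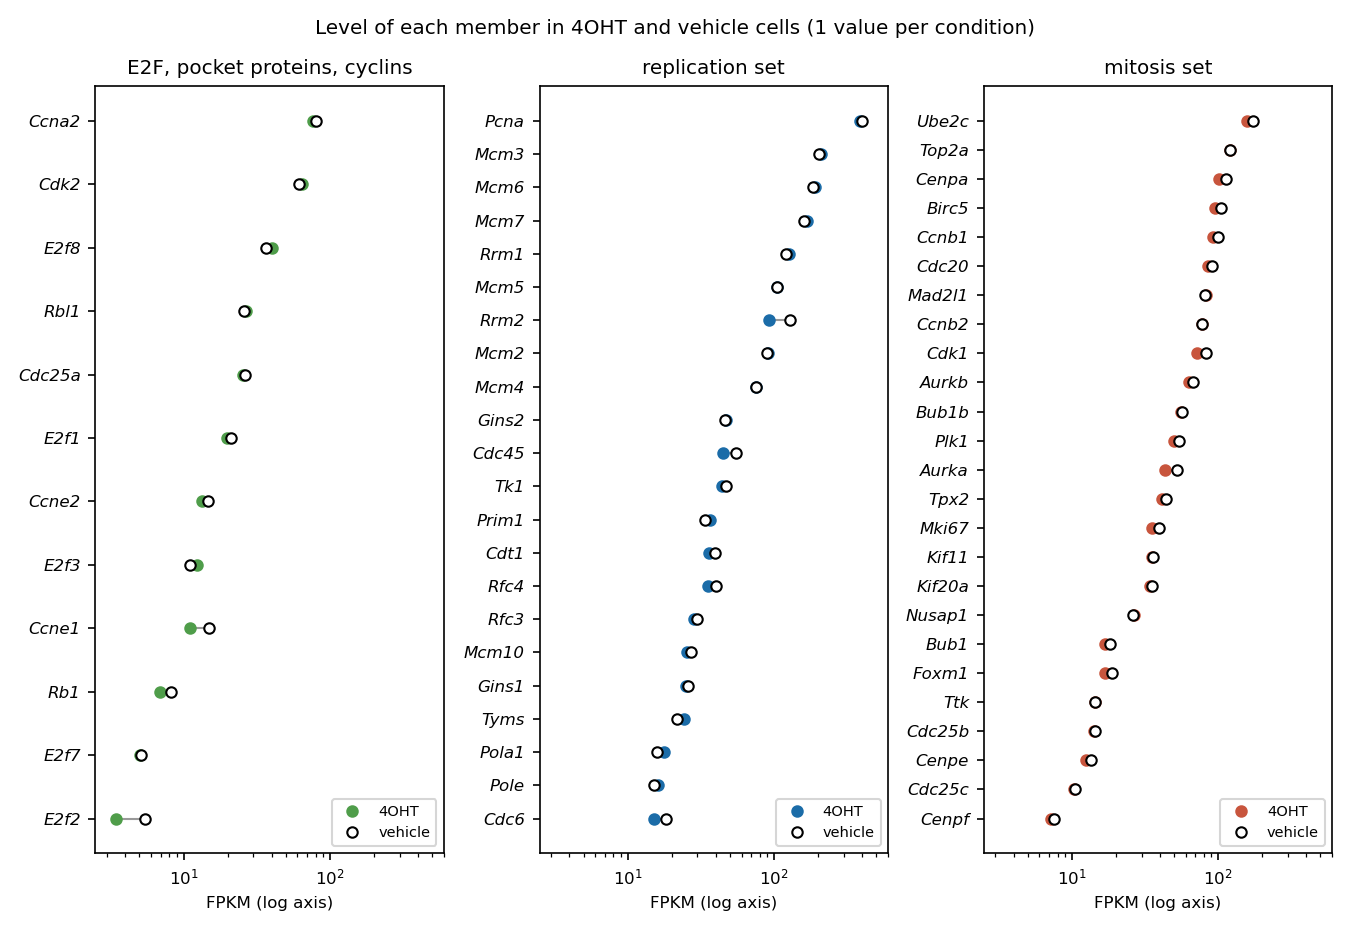
FPKM (log axis) of each member in 4OHT cells (filled) and vehicle cells (open), 1 value per condition, ordered by the level in 4OHT cells within each panel. Most pairs of circles nearly coincide, and the widest gaps belong to E2f2 (3.46 FPKM in 4OHT cells and 5.46 FPKM in vehicle cells), Rrm2 and Ccne1.

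The main comparison asked whether the cell cycle machinery differed between 4OHT and vehicle cells. Calls are those of the authors' deposited table, at a q under 0.05 among tested rows, and only called genes are said to have fallen or risen. Of the 59 members, 1 fell (E2f2) and 0 rose, against 3.11% of 11953 tested rows that fell and 2.8% that rose (5.91% either way). With shares this low, so few calls among 59 genes do not set the members apart from the background. By the authors' deposited table, at an unadjusted p under 0.05, there were 3 members that were lower (E2f2, Rrm2 and Ccne1) and 0 that were higher, against 6.14% of tested rows lower and 6.2% higher. By size, 5 members were at least 1.2-fold lower in 4OHT cells and 0 at least 1.2-fold higher, against 11.1% and 11.3% of the rows that reached 1 FPKM. At 1.5-fold the counts were 1 lower and 0 higher, against 4.19% and 3.7% of those rows, and at 1.1-fold 15 lower and 3 higher, against 21.2% and 21.9%. Within 1.1-fold of the vehicle level lay 41 of the 59 members, or 69.5%, against 56.9% of those rows, and within 1.2-fold 54, or 91.5%, against 77.5%. Those rows include genes of much lower level. Among the 8419 rows in the members' range of levels (5.12 to 399 FPKM in the higher condition), the shares were closer to the members', at 61.5% and 82.1%. In sum of FPKM the members held 0.521% of the total in 4OHT cells and 0.533% in vehicle cells. In bulk RNA, fewer cycling cells and less RNA per cell cannot be told apart.

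**Figure D3:**
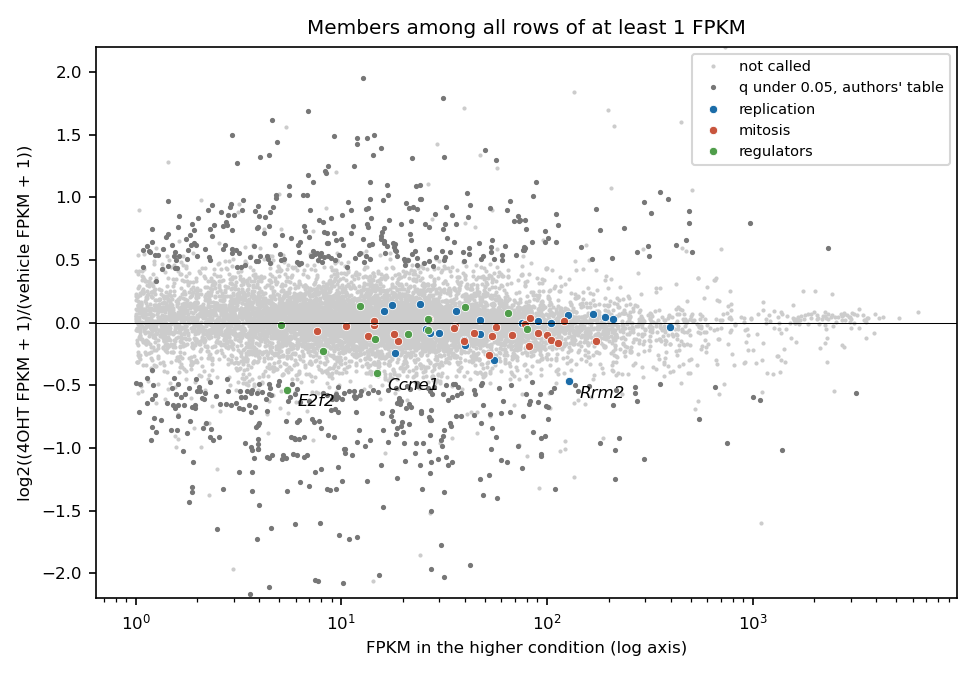
Difference between conditions (log2((4OHT FPKM + 1)/(vehicle FPKM + 1)), vertical axis) against the level in the higher condition (FPKM, log axis) for all 10989 rows of at least 1 FPKM, with the members in colour and rows called in the authors' deposited table in dark grey. The members lie along the zero line; E2f2 is the coloured point among the called rows, and 71 rows lie beyond the vertical limits.

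Among the E2F factors E2f2 fell and the others stayed close to their vehicle level. E2f2, an activating E2F, had 3.46 FPKM in 4OHT cells against 5.46 FPKM in vehicle cells, 1.58-fold lower (authors' deposited table, q = 0.0167). It was the lowest member in 4OHT cells, and in vehicle cells only E2f7 was lower. Its row lies on chromosome 4 of mm9 at 135728309 to 135751971, and its locus overlapped no other row. E2f1, the most studied activator of the family, had 19.9 FPKM in 4OHT cells and 21.2 FPKM in vehicle cells. E2f3, a further activator, had 12.3 and 11.2 FPKM in 4OHT and vehicle cells. The E2f1 level was 5.76 times that of E2f2 in 4OHT cells and 3.89 times in vehicle cells, so the balance within the activators differed while the larger part, E2f1, hardly did.

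The atypical factors E2f7 and E2f8, which repress E2F targets, were also close between conditions. E2f8 had 39.98 FPKM in 4OHT cells and 36.7 FPKM in vehicle cells and was the highest of the 5 E2F factors among the members. E2f7 had 5.06 and 5.12 FPKM in 4OHT and vehicle cells. Of the pocket proteins, Rbl1 (p107), itself a known E2F target, had 26.6 FPKM in 4OHT cells and 26.0 FPKM in vehicle cells. Rb1, the retinoblastoma gene, had 6.86 and 8.18 FPKM in 4OHT and vehicle cells, 83.9% of the vehicle level (authors' deposited table, q = 0.986). The Rb1 locus is shared with Lpar6, a measured gene, and reads of the pair cannot be assigned with certainty. Across the 7 E2F and pocket protein genes the median log2 ratio was -0.016, against 0.00031 over all rows of at least 1 FPKM.

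Transcripts of the replicative helicase were close to their vehicle level. The genes of its 6 subunits, Mcm2 to Mcm7, lay between 99.7% and 105% of the vehicle level and summed to 838 FPKM in 4OHT cells and 819 FPKM in vehicle cells. Mcm3 was the highest, with 209 FPKM in 4OHT cells and 204 FPKM in vehicle cells. Mcm4 was the lowest, with 75.4 and 75.6 FPKM in 4OHT and vehicle cells. The subunits form a single ring, yet their transcripts differed in level among themselves far more than any of them differed between conditions. Mcm7 was the farthest from its vehicle level, at 167 FPKM in 4OHT cells and 159 FPKM in vehicle cells, and the microRNA rows Mir106b and Mir25 lie in its locus.

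The factors that load and start the helicase were less uniform, though none was called. Cdc45, which joins the ring when origins fire, had 44.7 FPKM in 4OHT cells and 55.2 FPKM in vehicle cells, 80.9% of the vehicle level (authors' deposited table, q = 0.462). Cdc6, a loader, had 15.2 FPKM in 4OHT cells and 18.2 FPKM in vehicle cells, 83.7% of the vehicle level (authors' deposited table, q = 0.661). Those were the lowest ratios of the 12 licensing genes. The second loader, Cdt1, had 35.9 and 39.7 FPKM in 4OHT and vehicle cells, and Mcm10, which helps fire origins, 25.4 and 26.9 FPKM. GINS subunits were even closer, with 25.1 FPKM in 4OHT cells and 26.0 FPKM in vehicle cells for Gins1. Gins2 had 47.2 and 46.6 FPKM in 4OHT and vehicle cells, in a locus shared with Gse1. The 12 genes had a median log2 ratio of -0.0036.

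At the fork, 3 of 6 genes were above and 3 below the vehicle level, and all 6 lay within 1.2-fold of it. Pcna, the sliding clamp, was the highest of all members in either condition, with 389 FPKM in 4OHT cells and 399 FPKM in vehicle cells. The clamp loader subunits Rfc3 and Rfc4 were at 94.3% and 88.2% of the vehicle level. The Rfc4 locus is shared with the measured gene Eif4a2 and with small RNAs. Of the polymerase catalytic subunits, Pola1 stood at 17.7 FPKM in 4OHT cells and 15.96 FPKM in vehicle cells, and Pole at 16.2 and 15.1 FPKM, both uncalled. On the wider replication list other polymerase subunits were on either side of the vehicle level, such as Pold1 at 97.3% and Pold3 at 100.8%. Prim1, the primase that starts each Okazaki fragment, had 36.3 FPKM in 4OHT cells and 34.0 FPKM in vehicle cells.

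Genes of deoxynucleotide supply held both extremes of the replication set. Rrm2, the small subunit of ribonucleotide reductase whose level limits the enzyme, had 92.4 FPKM in 4OHT cells and 128 FPKM in vehicle cells, 72.1% of the vehicle level (authors' deposited table, q = 0.0601). Rrm1, the large subunit, had 126 FPKM in 4OHT cells and 121 FPKM in vehicle cells. Neither was called, and as single values there was 1.37 times as much Rrm1 as Rrm2 transcript in 4OHT cells and 0.941 times as much in vehicle cells. Tyms, thymidylate synthase, was at the other end, with 24.2 FPKM in 4OHT cells and 21.7 FPKM in vehicle cells, 112% of the vehicle level and the highest ratio of all members. Thymidine kinase, Tk1, had 44.2 and 47.1 FPKM in 4OHT and vehicle cells, in a locus shared with an unmeasured row.

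Of the cyclins and kinases around S phase entry, Ccne1 differed most. Ccne1, cyclin E1, had 11.04 FPKM in 4OHT cells and 14.9 FPKM in vehicle cells, 73.9% of the vehicle level, and the authors' deposited table gave p = 0.01965 and q = 0.213. Ccne2, cyclin E2, which shares its locus with Ints8, had 13.3 FPKM in 4OHT cells and 14.7 FPKM in vehicle cells. The ratio of Ccne1 to Ccne2 was 0.831 in 4OHT cells and 1.02 in vehicle cells. Ccna2, cyclin A2, was the highest of the 12 regulators, with 77.3 FPKM in 4OHT cells and 80.2 FPKM in vehicle cells. Cdk2, the kinase these cyclins bind, had 65.0 and 61.5 FPKM in 4OHT and vehicle cells. The phosphatase gene Cdc25a, which activates Cdk2, had 25.5 and 26.5 FPKM.

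Mitosis genes were mostly a little below the vehicle level and none was called. Of 25 members, 21 were below and 4 above (Mad2l1, Nusap1, Top2a and Ttk). The 84% below compares with 49.9% of all rows that reached 1 FPKM and 51.5% of rows in the members' range of levels. The differences were small, since 19 of the 25 lay within 1.1-fold and 24 within 1.2-fold. The count below depends on the scaling. Equal totals shift all genes by 0.023 log2 units, which would put Ccnb2 and Cdc25b above the vehicle level. Levels summed to 1363 FPKM in 4OHT cells and 1451 FPKM in vehicle cells, 93.96% of the vehicle sum.

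All 8 genes of mitotic entry were below the vehicle level as deposited. For Ccnb2 and Cdc25b the gap was so small that scaling to equal totals would put them above it. Aurka, a centrosome kinase, had 43.7 FPKM in 4OHT cells and 52.5 FPKM in vehicle cells, 83.2% of the vehicle level and the lowest ratio of the mitosis set (authors' deposited table, q = 0.625). Cdk1, the mitotic kinase, had 72.1 and 82.3 FPKM in 4OHT and vehicle cells, 87.6% of the vehicle level. Its partners stood nearer to their vehicle levels, Ccnb1 at 93.0 FPKM in 4OHT cells and 99.8 FPKM in vehicle cells, and Ccnb2 at 77.4 and 77.9 FPKM. Foxm1, the transcription factor of this program, had 16.9 FPKM in 4OHT cells and 18.8 FPKM in vehicle cells. Plk1, a kinase with many roles in mitosis, had 50.3 and 54.1 FPKM in 4OHT and vehicle cells. The phosphatase genes Cdc25b and Cdc25c were at 98.6% and 97.9% of the vehicle level.

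Genes of the spindle checkpoint and of anaphase were split. Ube2c, the ubiquitin-conjugating enzyme that works with the anaphase-promoting complex, was the highest mitosis gene, with 157 FPKM in 4OHT cells and 173 FPKM in vehicle cells. Cdc20, an activator of that complex, had 85.2 and 90.2 FPKM in 4OHT and vehicle cells, in a locus shared with Elovl1. The checkpoint kinase Bub1 had 17.0 FPKM in 4OHT cells and 18.1 FPKM in vehicle cells, and its relative Bub1b 55.4 and 56.7 FPKM. Mad2l1, a checkpoint protein that restrains Cdc20, had 83.0 FPKM in 4OHT cells and 80.8 FPKM in vehicle cells, the highest ratio of the mitosis set at 103%. The kinase gene Ttk had 14.5 and 14.4 FPKM.

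On chromosomes and centromeres, 6 of 7 genes were below the vehicle level. Cenpa, the centromeric histone, had 101 FPKM in 4OHT cells and 113 FPKM in vehicle cells, 89.3% of the vehicle level. Mki67, the gene of the proliferation antigen Ki-67, had 35.5 FPKM in 4OHT cells and 39.5 FPKM in vehicle cells, 89.9% of the vehicle level. Top2a, the topoisomerase that untangles sister chromatids, was the exception at 121 FPKM in 4OHT cells and 120.0 FPKM in vehicle cells. Birc5 (survivin) and Aurkb, partners in the chromosomal passenger complex, were at 90.97% and 93.3% of the vehicle level. Cenpe and Cenpf, both kinetochore proteins, were at 92.5% and 94.9%. The 4 genes of spindle motors and microtubules were all within 1.1-fold, between 94.2% (Tpx2) and 102% (Nusap1) of the vehicle level. Nusap1 shares its locus with Oip5, and Kif20a with Brd8 and Cdc23.

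**Figure D4:**
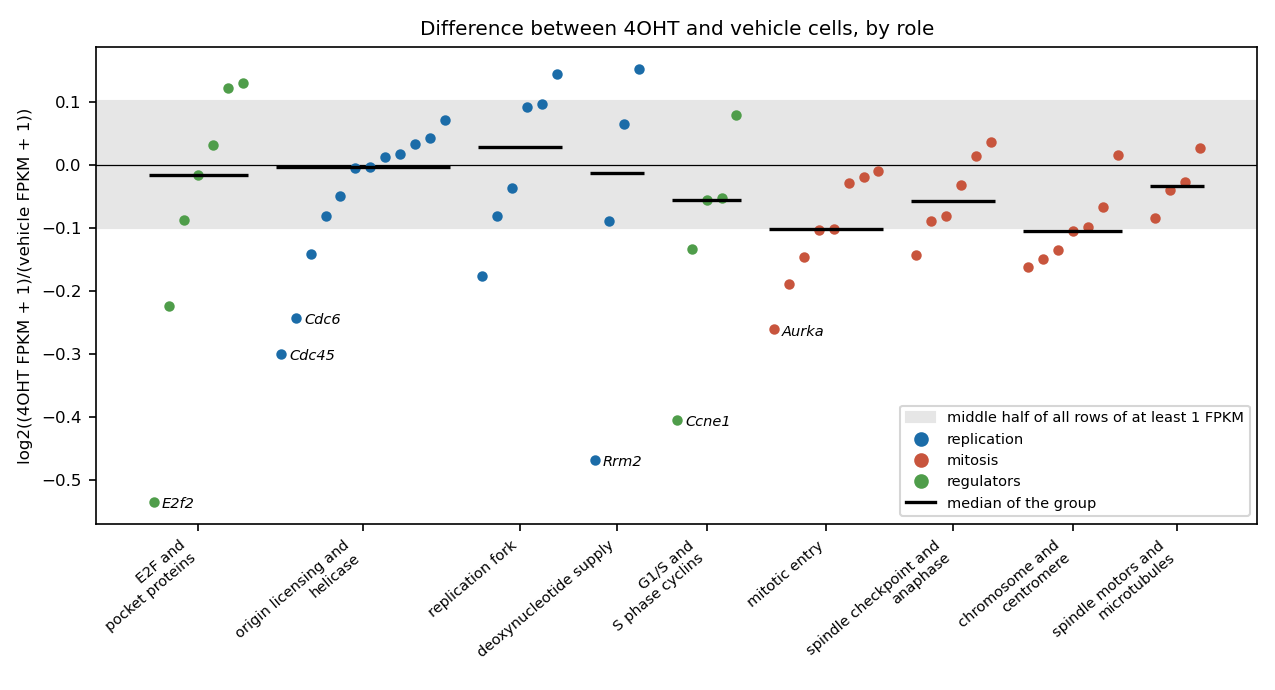
Log2((4OHT FPKM + 1)/(vehicle FPKM + 1)) of every member by role, with a black line at the median of each role and a grey band from the lower to the upper quartile of all rows of at least 1 FPKM (-0.099 to 0.102). E2f2, Rrm2, Ccne1, Cdc45, Aurka and Cdc6 stand lowest, and the medians of chromosome and centromere genes (-0.11) and of mitotic entry (-0.10) lie just under the band.

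Set against each other, the mitosis genes had a median log2 ratio of -0.084 and the replication genes one of -0.0036, a difference of -0.081, and the regulators had one of -0.054. Below the vehicle level were 84% of the mitosis genes and 54.5% of the replication genes. The largest single differences were outside the mitosis set, in the regulators E2f2 and Ccne1 and in Rrm2 and Cdc45 of the replication set. The means lay closer than the medians, at -0.079 for mitosis and -0.043 for replication, where Rrm2, Cdc45 and Cdc6 were lowest. The spread among genes, as SD of the log2 ratio, was 0.074 in the mitosis set and 0.15 in the replication set. No test was made of that contrast, because genes of 1 library are not replicates.

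Wider lists of the same functions did not show the contrast. They hold 54 further mitosis genes and 41 further replication genes, all measured and tested, and none was called by the authors' deposited table (0 of them, and 0 at an unadjusted p under 0.05). The wider mitosis list had a median log2 ratio of -0.041 and the wider replication list one of -0.042. Below the vehicle level were 39 of 54 mitosis genes (72.2%) and 27 of 41 replication genes (65.9%), and all 95 lay within 1.2-fold of it. Joined with the members, the medians were -0.046 over 79 mitosis genes and -0.040 over 63 replication genes, a difference of -0.0063. The joined medians thus lay slightly below the vehicle level, without a separation of the mitosis from the replication side. The replication members by themselves did not share that position, with a median of -0.0036 and 10 of 22 above the vehicle level. Scaling the conditions to equal totals shifts all genes by 0.023, so a position this close to the vehicle level depends on the scaling. Among genes that differed most on these lists, Cks1b, a cyclin-dependent kinase subunit, had 152 FPKM in 4OHT cells and 180.3 FPKM in vehicle cells. Anln, a cytokinesis protein, had 14.6 and 17.4 FPKM in 4OHT and vehicle cells, and the condensin subunit Smc2 41.5 and 48.7 FPKM. In the other direction, Rfc2, of the clamp loader, had 103 FPKM in 4OHT cells and 85.7 FPKM in vehicle cells, and Dnmt1, the maintenance DNA methyltransferase, 92.0 and 77.0 FPKM. Fen1, the flap endonuclease, had 69.9 and 79.5 FPKM.

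**Figure D5:**
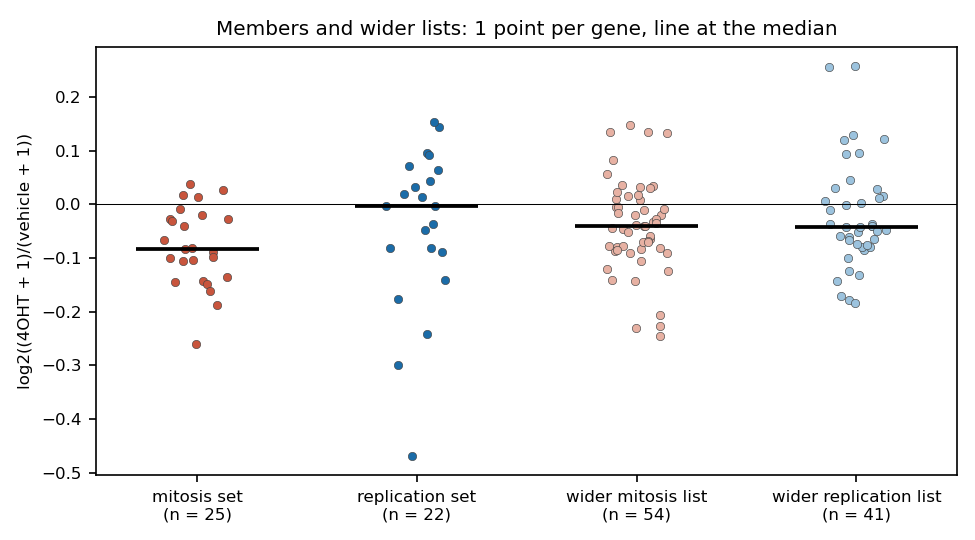
Log2((4OHT + 1)/(vehicle + 1)) of FPKM, 1 point per gene, for the mitosis set, the replication set and the wider list of each function, with a line at each median. The medians are -0.084 and -0.0036 in the member sets, and -0.041 and -0.042 in the wider lists.

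Partners of E2F outside the members showed no call either. Of 12 genes for other E2F factors, dimerization partners and the DREAM complex, which represses cell cycle genes at rest, none was called by the authors' deposited table (0, and 0 at an unadjusted p under 0.05), and 8 were above the vehicle level. Tfdp2, a dimerization partner, had 10.2 FPKM in 4OHT cells and 8.23 FPKM in vehicle cells. Rbl2 (p130), the pocket protein of resting cells, had 18.2 and 15.6 FPKM in 4OHT and vehicle cells. Lin37, a DREAM subunit, had 19.5 and 17.3 FPKM.

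Upstream of the E2F genes, and at later checkpoints, brakes on the cycle held 1 called gene and the D cyclins with their kinases 0 in the authors' deposited table. At an unadjusted p under 0.05 there, 2 brakes were higher (Cdkn2b and Cdkn2a), as was 1 gene of the second list, Cdk6. Of 12 measured brakes 8 were above the vehicle level and 4 below. Among them 1 rose, the p15 gene Cdkn2b, with 12.8 FPKM in 4OHT cells and 7.70 FPKM in vehicle cells and q = 0.0158 by the authors' deposited table. Cdkn2a had 28.8 and 20.01 FPKM in 4OHT and vehicle cells (authors' deposited table, q = 0.118), and Cdkn1a, the p21 gene, 52.3 and 43.3 FPKM. Cdk6, the kinase that these INK4 proteins bind, had 49.5 FPKM in 4OHT cells and 36.3 FPKM in vehicle cells (authors' deposited table, q = 0.0913). Cdk4, its relative, had 431 and 409 FPKM, and Ccnd3, a D cyclin, 80.98 and 88.0 FPKM in 4OHT and vehicle cells.

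Markers of myeloid maturation and of progenitors moved in the same comparison. Over all tested rows 3.11% fell and 2.8% rose. Of 8 neutrophil markers 5 were measured and 4 fell (Lcn2, S100a8, S100a9 and Cxcr2). The list summed to 30.9 FPKM in 4OHT cells and 83.8 FPKM in vehicle cells. Ltf, Ngp and Camp were under 1 FPKM in both conditions, with Camp listed at 0 in vehicle cells. Of 8 monocyte markers 6 fell (F13a1, Ly6c2, Lgals3, Cd14, Itgam and Irf8), and the sums were 393 FPKM in 4OHT cells and 730 FPKM in vehicle cells. Most of both sums was Ly6c2, with 323 and 551 FPKM in 4OHT and vehicle cells. The remaining monocyte markers were not called. Csf1r was at 89.9% of the vehicle level, and Ms4a6c was higher, with 4.22 FPKM in 4OHT cells and 2.10 FPKM in vehicle cells (authors' deposited table, q = 0.0577). Among 5 progenitor markers 3 rose (Cd34, Kit and Flt3), with sums of 739 and 509 FPKM in 4OHT and vehicle cells. Of 6 mast cell and basophil markers 3 rose (Cpa3, Gata2 and Slc18a2), with sums of 1185 FPKM in 4OHT cells and 710 FPKM in vehicle cells. Mcpt8, at 99.8% of the vehicle level, and Ms4a2 were not called, and Fcer1a was under 1 FPKM. The erythroid list held no called gene. Its Gata1 had 1.23 FPKM in 4OHT cells and 0.609 FPKM in vehicle cells (authors' deposited table, q = 0.0698), and Car1 was listed at 0. What part these shifts have in the small differences among cell cycle genes was not tested.

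The size of change that could be called sets the precision of these statements. Over tested rows in the members' range of levels, the smallest change called in the authors' deposited table was 1.39-fold, and 57 of the 59 members differed by less than that. Of the rows that differed by 1.2-fold to under 1.3-fold, 0 of 616 were called, and of those between 1.4-fold and under 1.5-fold, 50.3% were. A difference of a few percent, such as that of most mitosis genes, was therefore not detectable by that test. In 11 members the deposited locus is also that of another row, in 9 of them a measured one, and strandedness of the libraries is not stated in the labels, so reads of overlapping genes cannot be told apart.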

How the data were processed

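Per the labels' protocols, column-purified, DNase-treated RNA went into Illumina TruSeq RNA libraries. Per the submitters' processing notes, Cuffdiff 2.0.2, Bowtie2 2.0.0.7, CASAVA 1.8.2 and mm9 were used, in roles that are not stated. The authors deposited 1 table that holds FPKM by gene and condition, a linear fold ratio, a status, and a p-value and q-value for each row. Annotation and scaling between conditions were not stated. Recomputing Benjamini-Hochberg values over the 11953 tested rows gave the deposited q to within 5.28e-07, and the test behind each p is unknown. The deposited p move in steps of 5e-05, the smallest, whose q is 0.00165. Such steps are usual for resampled p-values, so it is in doubt that the named Cuffdiff release made them.

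No further test was possible with a single value in each condition, so calls are the authors' (tested rows, q under 0.05). Log2 ratios used a pseudocount of 1 FPKM, which understates changes of low genes, and rows of at least 1 FPKM in the higher condition counted as measured. Medians and counts were set beside the same over all measured or tested rows. Steps were tested on simulated data. The members and lists were chosen with earlier results of these data known, so no pattern here is independent support. Named genes were all members, Cebpa, and, on each further list of cycle genes, the called genes and the 3 largest differences. Cell type markers, and Pold1 and Pold3, were named outside that rule, with their values known. Promoters were matched by symbol in RefSeq's GRCm38.p6 table, and its coordinates were not mixed with mm9 loci. Alternatives were other pseudocounts, level filters, scalings, thresholds, set definitions and promoter windows. Work was done in Python 3.11.15 with numpy 2.4.6, pandas 2.3.3 and matplotlib 3.10.9.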

Additional observations from a re-analysis of the deposited data

How the results depend on the processing

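No paired analysis was possible because each condition is 1 deposited value that joins its replicates, and for the same reason no replicate could be left out. Of the alternatives to the medians (pseudocount, level filter, scaling, mean for median), those that moved a value by 0.05 log2 units or more, or turned its sign, were few. That limit is close to the medians of all members (-0.052) and of the regulators (-0.054). Few moves therefore do not show that such small values are stable. The replication median was -0.0036 and became 0.0103 when each condition was divided by its median FPKM and 0.0195 when totals were made equal, steps that shift all genes by 0.014 and 0.023. The gap between mitosis and replication medians, -0.081, was -0.036 with means in place of medians and -0.0063 with the wider lists joined. Counts of genes below the vehicle level depend on these scalings too. Among mitosis and replication members, either rescaling would put Ccnb2, Mcm4 and Mcm5 above it, and equal totals Cdc25b as well. Other counts moved with the threshold. Members called lower were 1 at q under 0.05, 2 at q under 0.1, 0 at q under 0.01 and 3 at an unadjusted p under 0.05 in the authors' deposited table, and members called higher were 0 in each. At 1.5-fold 1 member was lower, with 0 in the replication set and 0 in the mitosis set. At 1.1-fold 15 members were lower and 3 higher, with 5 lower in the replication set and 6 in the mitosis set. With either rescaling, the mitosis count at 1.2-fold was 0, since Aurka lies at the edge. The E2f2 log2 ratio of -0.53 was -0.64 with a pseudocount of 0.1 and -0.66 without one. With promoters cut to 150 bases before the start, CHR stood in 8.25% of tested genes and still in 65% of mitosis promoters. Depth is unknown, and differences under about 1.39-fold were out of reach of the deposited test.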

Other observations

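Some genes tied to leaving or pausing the cell cycle were called. Of 8 listed genes of quiescence and growth arrest, 6 were measured, 2 fell and 1 rose in the authors' deposited table. Over all tested rows 3.11% fell and 2.8% rose. Txnip (99.1% of the vehicle level), Btg2 (124%) and Foxo3 (117%) were measured and not called. Klf2, a transcription factor that keeps lymphocytes at rest, fell to 1.09 FPKM in 4OHT cells, against 7.70 FPKM in vehicle cells. Btg1, an antiproliferative gene, fell to 7.31 FPKM in 4OHT cells, against 11.6 FPKM in vehicle cells. Ccng2, an unconventional cyclin linked to arrest, rose to 18.7 FPKM in 4OHT cells, against 12.6 FPKM in vehicle cells. The q was 0.00165 for Klf2, 0.0031 for Btg1 and 0.0285 for Ccng2 in the authors' deposited table, where 0.00165 is the smallest q that occurs.

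Promoter motifs did not sort the members clearly by their difference between conditions. The 22 members with an E2F motif had a median log2 ratio of -0.0097, with 12 below the vehicle level, and the 25 without one had -0.081, with 19 below. The 18 members with CHR had -0.074, with 13 below, and the 29 without it -0.036, with 18 below. The motifs were also unevenly spread over the replication and mitosis sets, whose medians differ, and the part of each was not tested.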
